A study of Homo sapiens with 43 samples.

Results

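The 8 chromatin modifier genes KMT2D, CREBBP, EP300, EZH2, KMT5B, ARID1A, TET2 and KDM6A were followed through 33 ChIP-seq peak lists of SUDHL5 and KARPAS422, a pair of established human lymphoma cell lines of germinal centre B cell type. They were chosen by name, with earlier results of these data known. All 8 were found among the 20033 protein-coding genes with a place on hg38. The lists cover cells given 0.1% DMSO alone or 30 nM CDK-TCIP1 in the same solvent. CDK-TCIP1 carries, on a single linker, a ligand for the transcriptional kinase CDK9 and another for the repressor BCL6. CDK9 was precipitated at 2 h, with 2 lists per treatment in each of 3 series: SUDHL5 with the antibody ab239364, SUDHL5 with CST2316S, and KARPAS422 with CST2316S. RNA polymerase II was precipitated in SUDHL5 as its serine 2 phosphorylated form (Ser2P, 2 lists per group), its serine 5 phosphorylated form (Ser5P, 2 lists per group) and with the antibody 8WG16 (Pol II, 3 lists per group). The polymerase series have DMSO lists at 4 h only, so the 2 h and the 4 h treated lists are set against the same DMSO lists. Each line stands for 1 culture model, and the labels do not say whether replicates were separate cultures. KARPAS422 is known to carry an activating EZH2 mutation. Read totals are not in the files, so the depth behind a list is unknown. The lists hold from 138 to 28951 peaks, and replicate 1 of each Pol II group is short (710 peaks in DMSO, 1214 at 2 h and 138 at 4 h). As a check of the cell type, 8 of 8 B cell marker genes had a peak at a gene end in both Ser5P DMSO lists of SUDHL5, against 1 of 6 T cell markers (CD3E) and 0 of 6 myeloid markers. In KARPAS422 7 and 8 of 8 B cell markers had a CDK9 peak in the DMSO lists, as did 2 and 3 of 6 T cell markers.

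The 8 proteins write, erase or read out the state of nucleosomes and DNA. KMT2D places monomethylation on histone H3 lysine 4 at enhancers. CREBBP and EP300 are paralogous acetyltransferases that modify H3 lysine 27 and many other lysines. EZH2 is the catalytic subunit of Polycomb repressive complex PRC2, and KDM6A removes the methylation that PRC2 places on H3 lysine 27. KDM6A works within the same complex as KMT2D. KMT5B methylates histone H4 lysine 20, ARID1A is a DNA-binding subunit of the BAF nucleosome remodeller, and TET2 oxidises 5-methylcytosine. KMT2D, CREBBP, EP300, EZH2 and ARID1A are recurrently mutated in germinal centre lymphomas, and BCL6 is known to oppose the acetyltransferases at B cell enhancers. CDK9 is the kinase of P-TEFb and phosphorylates polymerase as it leaves the start of a gene. Ser5P marks polymerase near gene starts, and Ser2P marks elongating polymerase further into genes.

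All 8 are long genes, with spans from 41.8 kb to 239.6 kb and a median of 86.8 kb, against a median of 24.1 kb over all 20033 genes. In hg38 coordinates KMT2D lies at chr12:49018978-49060794 on the minus strand, CREBBP at chr16:3725054-3880713 on the minus strand, and EP300 at chr22:41092592-41180077 on the plus strand. EZH2 lies at chr7:148807383-148884291 and KMT5B at chr11:68154863-68213648, both on the minus strand. ARID1A lies at chr1:26696015-26782104, TET2 at chr4:105145875-105279803 and KDM6A at chrX:44873188-45112779, all on the plus strand. Places of peaks are given against gene spans and starts, since exon positions were not used here.

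Sequence just upstream of the outermost start is shown for the genes whose starts separate the antibodies, the treatments or the gene's own start sites. It was taken from RefSeq (GRCh38.p14) and is written 5′ to 3′ on the strand of the gene. For KMT5B (chr11:68213649-68213898, minus strand) the capitals mark a 16-base direct repeat. For KMT2D (chr12:49060795-49061044, minus strand), KDM6A (chrX:44872938-44873187, plus strand) and TET2 (chr4:105145625-105145874, plus strand) the capitals mark GC boxes, CCAAT boxes and E boxes on either strand.
KMT5B: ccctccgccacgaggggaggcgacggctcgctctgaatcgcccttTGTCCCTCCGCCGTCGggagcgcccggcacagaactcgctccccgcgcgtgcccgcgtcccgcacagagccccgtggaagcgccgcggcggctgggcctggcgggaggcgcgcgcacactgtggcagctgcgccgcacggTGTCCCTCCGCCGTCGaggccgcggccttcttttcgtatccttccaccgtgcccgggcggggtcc
KMT2D: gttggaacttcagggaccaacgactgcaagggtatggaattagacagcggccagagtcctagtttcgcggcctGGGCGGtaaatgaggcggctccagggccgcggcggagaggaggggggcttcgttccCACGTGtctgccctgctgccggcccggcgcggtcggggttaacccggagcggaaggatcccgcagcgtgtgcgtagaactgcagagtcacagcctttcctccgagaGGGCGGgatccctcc
KDM6A: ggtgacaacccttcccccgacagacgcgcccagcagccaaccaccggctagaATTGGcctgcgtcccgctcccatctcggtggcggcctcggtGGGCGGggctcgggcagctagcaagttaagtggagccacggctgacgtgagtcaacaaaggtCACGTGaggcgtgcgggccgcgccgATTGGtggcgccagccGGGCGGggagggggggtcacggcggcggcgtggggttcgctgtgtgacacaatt
TET2: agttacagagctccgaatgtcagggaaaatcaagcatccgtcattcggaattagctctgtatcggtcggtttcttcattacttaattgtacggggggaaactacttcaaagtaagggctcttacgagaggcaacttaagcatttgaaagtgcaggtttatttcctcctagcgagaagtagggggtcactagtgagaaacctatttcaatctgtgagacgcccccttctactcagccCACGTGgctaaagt

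The 16 bases of the KMT5B repeat start 205 bases and 65 bases upstream of the gene start. A direct repeat of at least that length was found in 186 of 7058 upstream windows of the same size (2.64%). Of the other members, ARID1A had a repeat of 17 bases in its window, and the window of the inner CREBBP start had 1 of 18 bases. The E box CACGTG was found upstream of KMT2D, TET2 and KDM6A and in 8.20% of all windows. The GC box GGGCGG was found upstream of 6 of the 8 genes (56.0% of all windows), all but EP300 and TET2. These counts are for the outermost starts. The window of the inner TET2 start, 1001 bp into the gene, held 5 GC boxes and no E box. CCAAT was found at EZH2 (4 matches) and KDM6A (2 matches), against 35.6% of all windows. Matches of GGGCGG can overlap each other, as in the CREBBP window. The letters TTCNNNGAA, a spaced half-site pair of the kind BCL6 and STAT proteins bind, were in none of the 8 windows and in 5.91% of all of them. The windows of 7 of the genes were richer in G and C than the median window (62.4%), from 65.6% at KMT2D to 80.4% at ARID1A. The exception was TET2 at 45.6%.

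Within 1 kb of either gene end and over the spans, the 33 lists held 254 peaks, of which 172 (67.7%) touched the 2 kb window around the start, 27 touched only the other end and 55 lay inside. A start peak was in 28 lists for EZH2, 27 for EP300, 25 for KDM6A, 23 for ARID1A, 22 for KMT5B, 18 for KMT2D, 7 for TET2 and 1 for CREBBP. CREBBP and EP300 encode closely related enzymes, and CREBBP stood last in this order while EP300 was next to the highest. The window at the far end of KMT2D also holds the start of PRKAG1, 202 bp beyond the end of KMT2D, and DDN-AS1. The peaks there, in 21 lists and in 6 of 9 Pol II lists, could therefore not be assigned to KMT2D. Start windows are also shared by MIR1281 at EP300, LOC124901767 at EZH2, LOC124900417 at ARID1A and LOC124900868 at TET2.

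**Figure D1:**
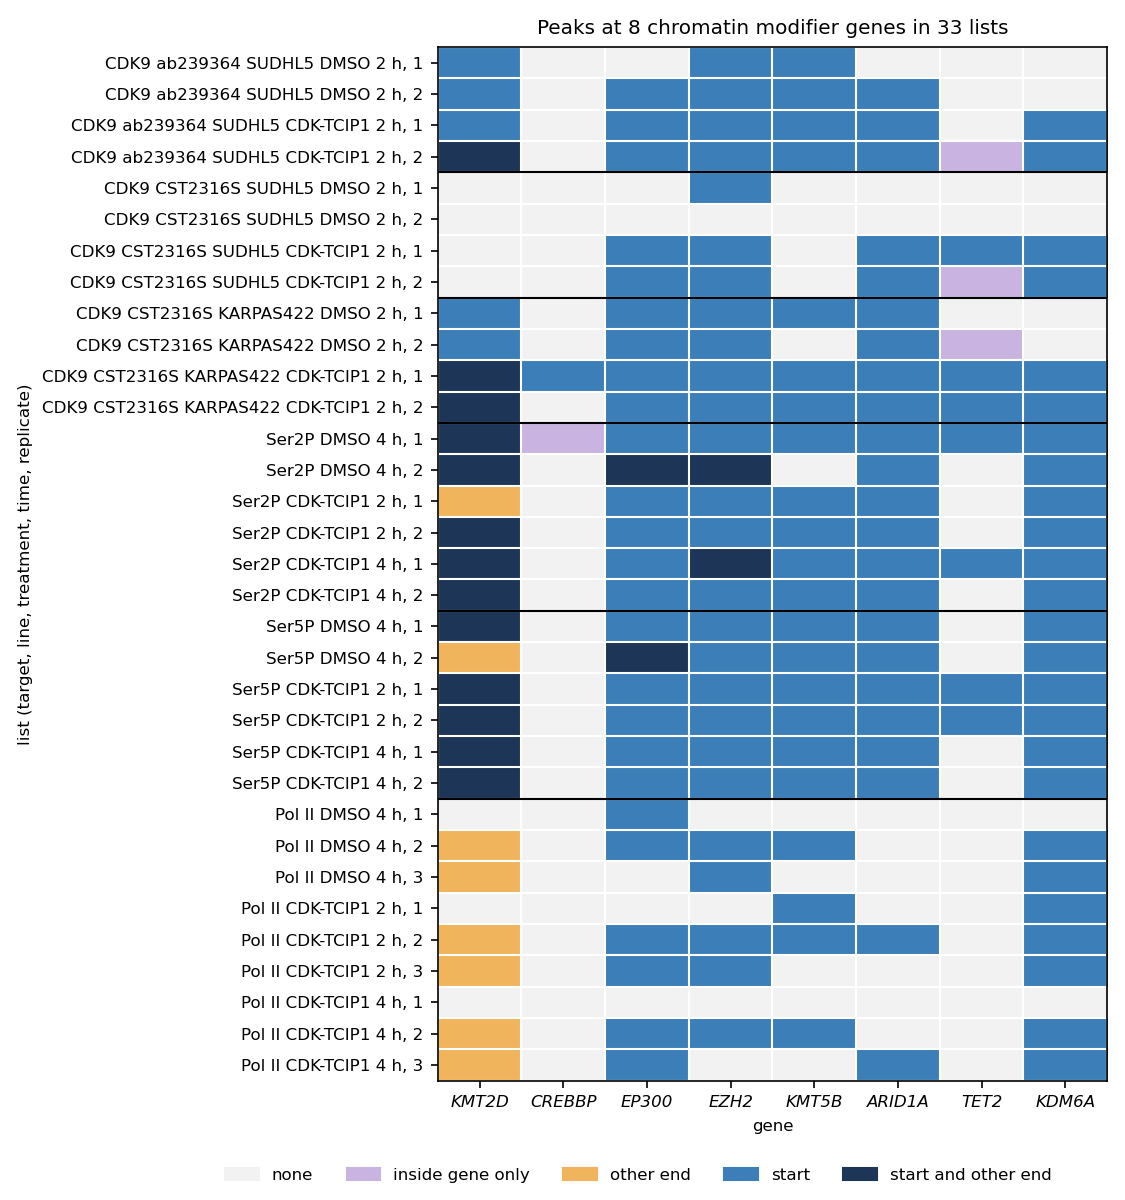
Each row is a peak list and each column a gene, coloured by where the list holds a peak: start window, other end, both, inside the gene only, or nowhere. The CREBBP column is empty in 31 of 33 lists, the KDM6A column changes between DMSO and CDK-TCIP1 in all 3 CDK9 series, and KMT2D and KMT5B are empty in all 4 CST2316S lists of SUDHL5.

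Whether CDK-TCIP1 brought CDK9 to these genes was asked first. A gene gained a peak where every treated list and no DMSO list held a peak within 1 kb of an end, and lost it in the opposite case. KDM6A, the H3 lysine 27 demethylase gene, gained CDK9 in all 3 series, the only member to do so, as did 94 of all genes (0.469%). EP300 and ARID1A gained CDK9 in SUDHL5 with CST2316S, and TET2 gained it in KARPAS422. The TET2 call rests on the window edge, since 1 KARPAS422 DMSO list held a peak beginning 1081 bp from the start. Over the gene span with 1 kb flanks TET2 was not called there. No member lost a CDK9 peak. In all, 4 of 8 members gained CDK9 in at least 1 series, against 14.2% of all genes. Of the 20033 genes, 9215 had no gene-end peak in any list, while every member had a start peak in at least 1 list. Shares of all genes, here and below, include those genes and are not matched for occupancy, so they are no measure of enrichment among the members. With 2 lists per group the smallest exact permutation p is 0.333, so no single series can pass a threshold of 0.05.

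With ab239364 in SUDHL5 the gain call took in 1 of 8 members, KDM6A, and 7.57% of all genes. The loss call took in 0.00998% of all genes. With CST2316S in SUDHL5 it took in 3 of 8 members, EP300, ARID1A and KDM6A, and 6.31% of all genes, with none lost (0%). In KARPAS422 it took in 2 of 8, TET2 (by the window edge) and KDM6A, and 4.38% of all genes, with 0.629% of all genes lost. The treated lists were longer in each series: 9262 and 11148 peaks against 915 and 3508 for ab239364, 10005 and 9761 against 1611 and 1264 for CST2316S in that line, and 14554 and 10297 against 6689 and 7804 in KARPAS422. When every list was cut to the same number of top peaks, 0 members gained CDK9 with either antibody in SUDHL5, and TET2 and KDM6A still gained it in KARPAS422. With -log10 q of at least 5, KDM6A and EP300 were gained with ab239364 and only ARID1A with CST2316S in SUDHL5, so that no member was gained in all 3 series. Without DMSO replicate 2 of ab239364, EP300 and ARID1A were gained beside KDM6A. No share of all genes is given for the cut, stricter or left-out lists, so these counts cannot be compared with all genes.

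At the KDM6A start, CDK9 peaks covered 0 bp of the 2001 bp window in all 6 DMSO lists. With ab239364 they covered 1582 and 1446 bp after CDK-TCIP1, a mean of 1514 ± 96.2 bp (SD, n = 2). With CST2316S they covered 946 and 925 bp in SUDHL5 (936 ± 14.8 bp) and 2001 and 1396 bp in KARPAS422 (1698 ± 428 bp). Treated and DMSO lists thus did not overlap at KDM6A in any of the series. The peaks were of middling strength: their fold enrichment, the authors' own value relative to the background of each list, was 7.20 and 5.26 (ab239364), 2.99 and 4.15 (CST2316S in SUDHL5), and 6.71 and 8.16 in KARPAS422. In rank by q they stood among the top 26.1% and 38.8%, 87.0% and 59.4%, and 34.3% and 31.0% of their lists. The summits lay from 471 bp upstream to 878 bp downstream of the start, so they did not share a position.

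At the ARID1A start, cover with ab239364 was 0 and 835 bp in DMSO and 1486 and 1847 bp after CDK-TCIP1. With CST2316S it was 0 bp in both DMSO lists and 1051 and 873 bp in the treated lists of SUDHL5. The 1051 bp are the edge of a peak 3483 bp wide, whose summit lay 2551 bp upstream, outside the window and within LOC124900417. In KARPAS422 it was already 1537 and 1520 bp in DMSO and 2001 bp, the whole window, in both treated lists. ARID1A was the other member, beside KDM6A, where the treated lists lay above the DMSO lists in every series. Start cover above both DMSO lists in both treated lists was found at 5 of 8 members with ab239364 (15.9% of all genes with known strand), at KMT2D, EP300, KMT5B, ARID1A and KDM6A. It was found at 3 of 8 with CST2316S in SUDHL5 (7.66%), the members already called gained. In KARPAS422 it was found at 4 of 8 (10.3%), KMT5B, ARID1A, TET2 and KDM6A.

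At the EP300 start, cover with ab239364 was 0 and 510 bp in DMSO and 1244 and 1191 bp after CDK-TCIP1. With CST2316S in SUDHL5 it went from 0 bp in both DMSO lists to 1102 and 372 bp. In KARPAS422 the lists overlapped, at 1884 and 1606 bp in DMSO and 1886 and 1867 bp in the treated lists. EP300 was thus near full cover in KARPAS422 without the compound.

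EZH2 carried CDK9 in DMSO lists of all 3 series and was called gained in none. Its start cover with ab239364 was 443 and 965 bp in DMSO and 1532 and 912 bp after CDK-TCIP1. With CST2316S it was 815 and 0 bp against 1599 and 750 bp in SUDHL5, and 1520 and 1479 bp against 2001 and 894 bp in KARPAS422. Treated and DMSO lists overlapped each time. In each of the 11 CDK9 lists with an EZH2 start peak, the strongest such peak had its summit upstream of the start, between 337 and 571 bp away.

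Over the 3 series together, start cover was tested by relabelling lists within each line. The lists of both SUDHL5 antibodies with the same treatment and number were relabelled together, since they may come from the same cells. This gives 36 relabellings and a smallest p of 0.0556, so no gene could pass 0.05. KDM6A (1383 bp more cover after CDK-TCIP1), ARID1A (894 bp) and KMT5B (273 bp) reached that smallest exact permutation p, as did 910 of 6154 genes tested (14.8%). Their adjusted p over all genes (Benjamini-Hochberg) was 0.376. The other members were EP300 (610 bp, exact permutation p = 0.111), EZH2 (411 bp, p = 0.333), KMT2D (102 bp, p = 0.167), CREBBP (47.5 bp, p = 1) and TET2 (22.7 bp, p = 0.167). All 8 mean differences were above 0, as was the median over all genes tested, at 172 bp. KMT2D, CREBBP and TET2 lay below that median. The 910 genes at the smallest p all had more cover after CDK-TCIP1, where the lists were longer. The share of all tested genes above 0 is not given, so the common sign of the members cannot be read as particular to them.

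**Figure D2:**
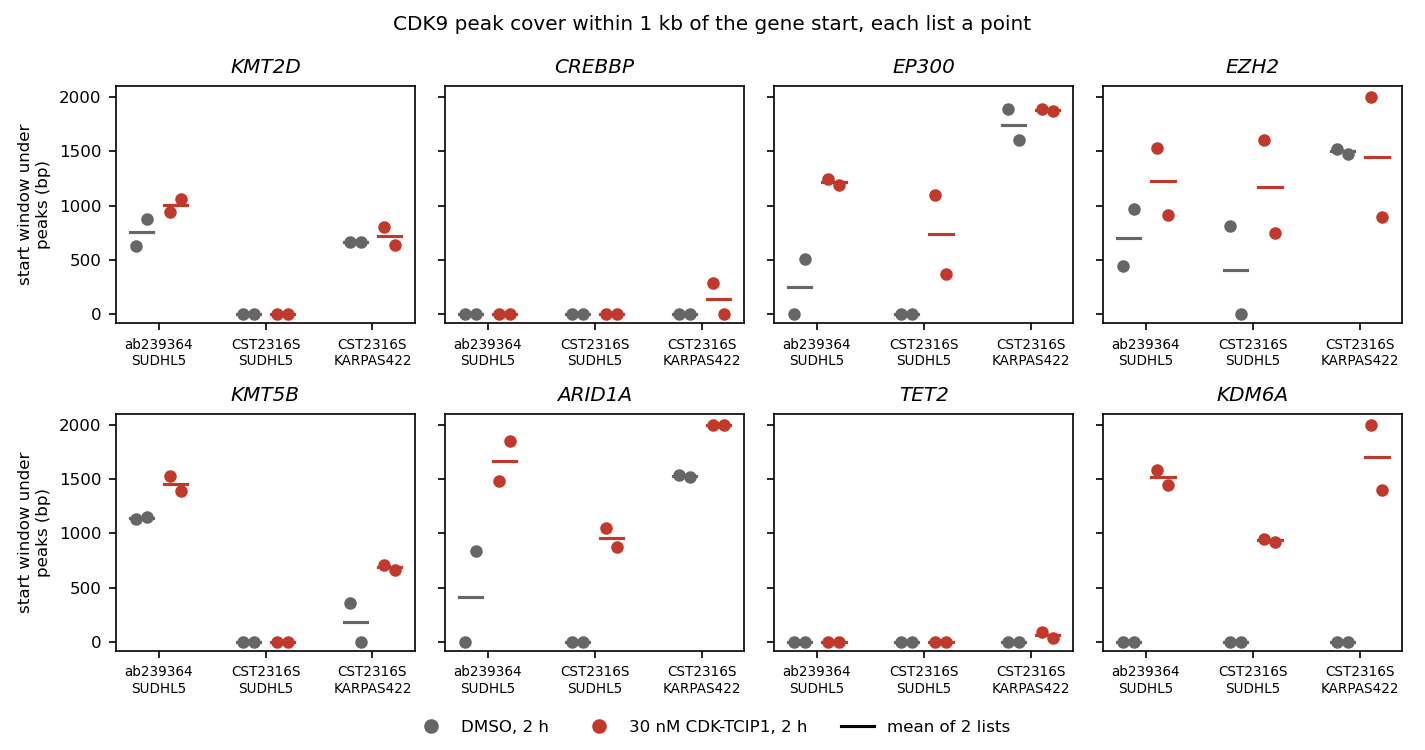
Each point is 1 list, grey for DMSO and red for 30 nM CDK-TCIP1 at 2 h, and the y axis gives the bases of the 2001 bp start window under CDK9 peaks; bars are means of 2 lists. All 6 grey points of KDM6A are at 0 and its red points lie between 925 and 2001 bp, while CREBBP stays at 0 bp in all lists but 1.

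The antibodies differed at the start of KMT5B, the H4 lysine 20 methyltransferase gene. Its start peak was the strongest of all peaks, by q and by fold, in each of the 4 ab239364 lists. The authors' fold was 180 and 238 in DMSO and 303 and 195 after CDK-TCIP1, or 2.44 to 2.88 times the peak ranked next. It spanned chr11:68213215-68214342 and chr11:68213125-68214277 in the DMSO lists, and chr11:68213123-68214647 and chr11:68213136-68214522 in the treated lists. The summits lay 197, 211, 191 and 207 bp upstream of the start, next to the first copy of the repeat shown above. None of the 4 CST2316S lists of SUDHL5 held a peak there. The peak ranked next in each ab239364 list overlapped a CST2316S peak in 3 or 4 of 4 lists. In KARPAS422, CST2316S gave a KMT5B peak of fold 6.31 in 1 of 2 DMSO lists and of 5.04 and 10.5 in the treated lists. The peak was present without the compound. Folds are relative to the background of their own list and not scaled between lists, so they are given side by side and no difference is read from them.

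KMT2D showed the same division at lower rank. Its ab239364 start peaks had folds of 24.6 and 22.96 in DMSO and 40.4 and 48.6 after CDK-TCIP1, within the top 1.75%, 0.485%, 0.162% and 0.152% of their lists. The summits lay only 12 to 26 bp upstream of the start. No CST2316S list of SUDHL5 had a KMT2D peak, and all 4 CST2316S lists of KARPAS422 did, with folds of 4.49 and 4.83 in DMSO and 5.69 and 5.16 after CDK-TCIP1. Start cover in KARPAS422 was 666 and 664 bp in DMSO and 807 and 641 bp in treated lists, which overlap. A peak in all 4 ab239364 lists and no CST2316S list of SUDHL5 was found at 2 of 8 members and 362 of all genes (1.81%), a pattern looked for after the values were seen. Among the 100 strongest peaks of each ab239364 list, 58 and 57 in DMSO and 37 and 28 after CDK-TCIP1 overlapped no CST2316S peak of SUDHL5. Which antibody reports CDK9 at these starts was not tested, and both genes' SUDHL5 values rest on ab239364 alone.

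**Figure D3:**
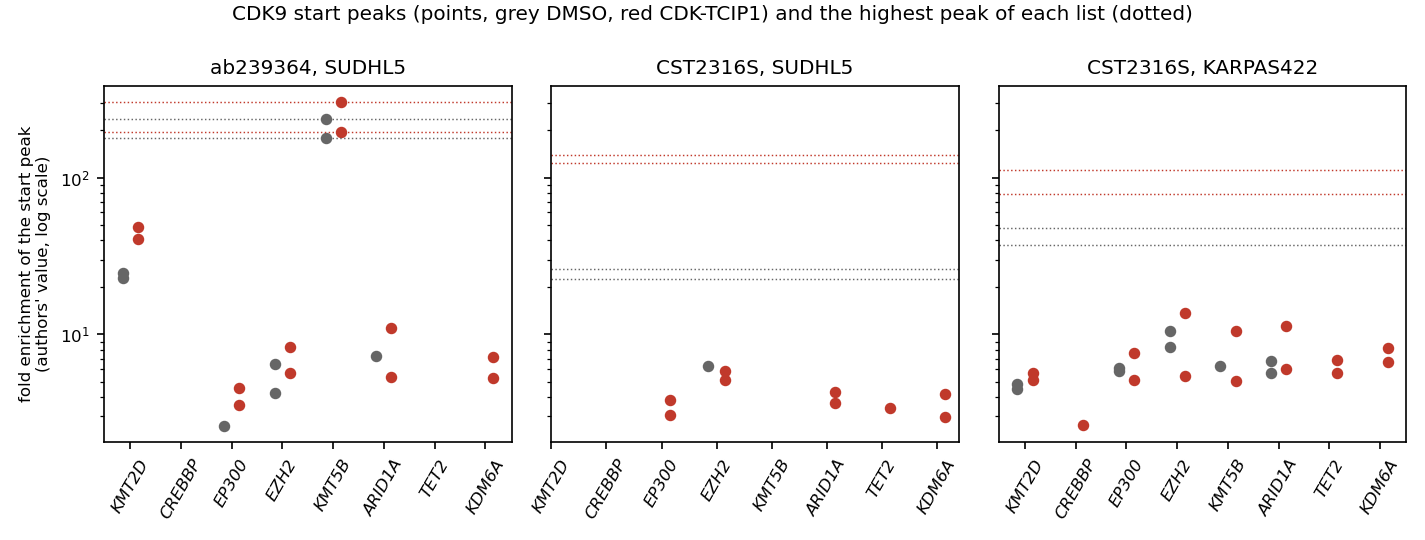
Points give the authors' fold enrichment of the start peak at each gene on a log axis, grey for DMSO lists and red for CDK-TCIP1 lists; dotted lines give the highest fold of any peak in each list. In the ab239364 panel the 4 KMT5B points, from 180 to 303, sit on the dotted lines, and KMT2D lies between 22.96 and 48.6, while the CST2316S panels hold no member above 13.7.

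The lines could be compared with CST2316S in DMSO. KMT2D, EP300 and ARID1A had a peak in both KARPAS422 DMSO lists and in no SUDHL5 DMSO list, as did 11.1% of all genes. The reverse held for no member and 0.165% of all genes. The KARPAS422 DMSO lists were longer than the SUDHL5 ones (6689 and 7804 against 1611 and 1264 peaks), and line and list length cannot be told apart here.

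TET2 has more than 1 annotated start, and its CDK9 peaks lay at the inner one. RefSeq gives a TET2 start 1001 bp into the gene, with 72.8% G and C upstream of it. The sequence shown above is that of the outermost start and not of this inner one. The 6 CDK9 peaks of TET2 had summits between 1108 and 1261 bp from the outermost start. They began at 906 to 1081 bp, so that 3 of the 6 reached into the 1 kb window and 3 lay just outside it. In KARPAS422 the treated peaks reached 95 and 36 bp into the window, with folds of 5.65 and 6.88. The peak of 1 DMSO list, fold 3.47, began at 1081 bp and stayed outside it. With a window of 2.5 kb, chosen after this was seen, TET2 was no longer gained in KARPAS422 and was gained in SUDHL5 with CST2316S. Over the whole gene span TET2 was likewise gained with CST2316S in SUDHL5, where both treated lists held the peak (0.708 and 0.564 kb) and neither DMSO list did.

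**Figure D4:**
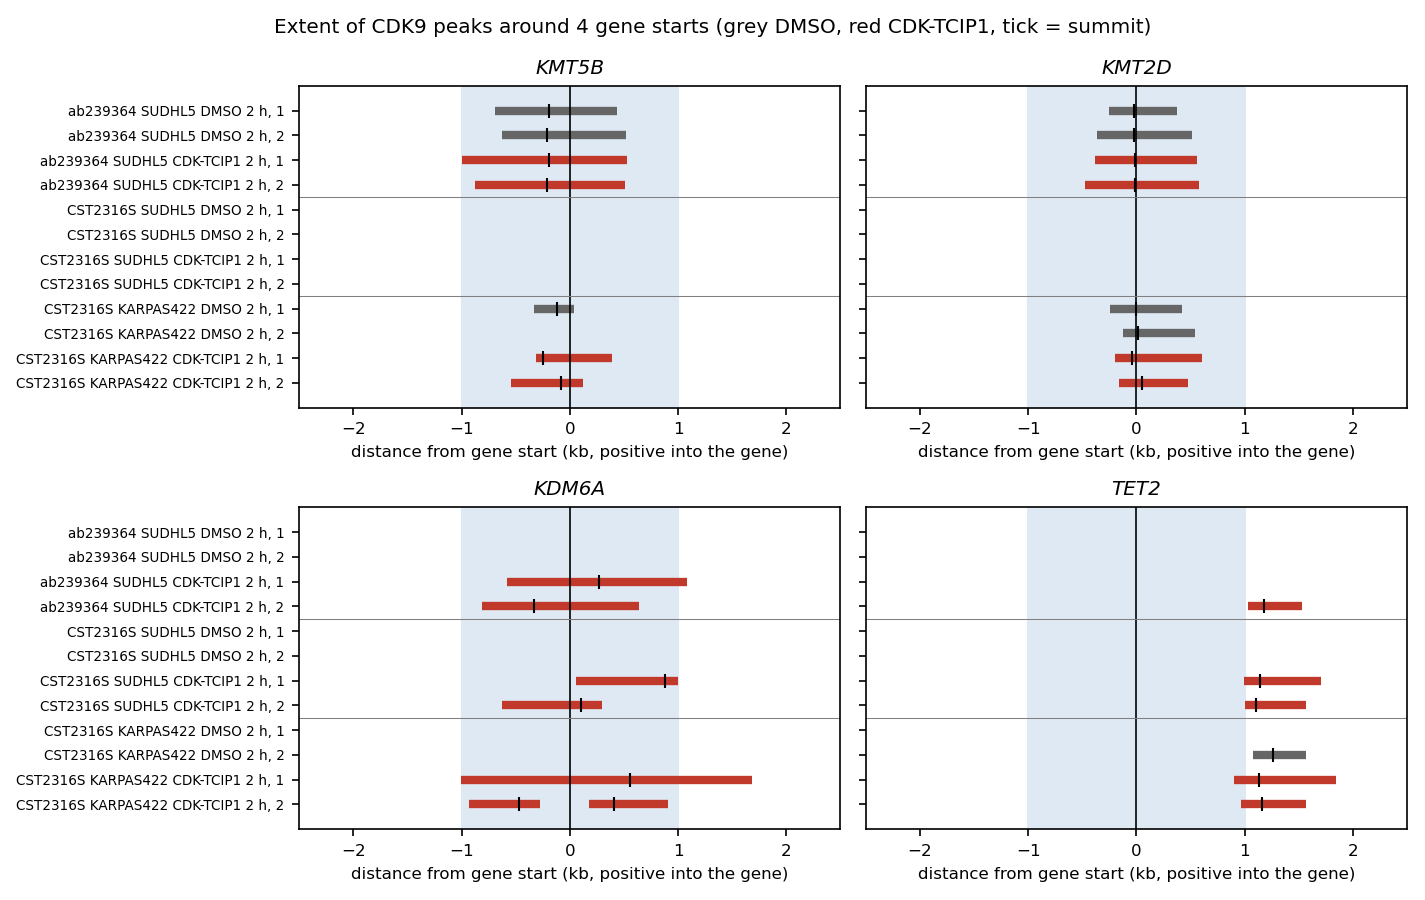
Each bar is a CDK9 peak drawn by its distance from the outermost gene start, with a tick at its summit, grey for DMSO and red for CDK-TCIP1; the blue band is the 1 kb window on either side. KMT5B and KMT2D summits are aligned in the 4 ab239364 rows, KDM6A has red bars only, and the TET2 bars begin near the right edge of the band.

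CREBBP was nearly empty. Across all 33 lists it held 3 peaks: 1 Ser2P peak 145775 bp into the gene in DMSO replicate 1, and CDK9 peaks 1162 bp and 18655 bp into the gene in replicate 1 of treated KARPAS422. The CDK9 peaks had folds of 2.64 and 4.29 and ranks within the top 81.8% and 65.1%. Both lists are the longest of their series. RefSeq places an inner CREBBP start 593 bp into the gene.

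Over the gene spans with 1 kb flanks the gain call gave nearly the same members. It named KDM6A with ab239364 (9.88% of all genes), EP300, ARID1A, TET2 and KDM6A with CST2316S in SUDHL5 (9.93%), and KDM6A in KARPAS422 (5.22%). The summed length of the 8 spans under CDK9 peaks was 5.10 ± 0.398 kb after CDK-TCIP1 against 1.27 ± 0.646 kb in DMSO with ab239364 (SD, n = 2), 4.02 times as much, where all genes together gave 7.20 times. With CST2316S it was 2.95 ± 0.761 kb against 0 kb in SUDHL5, where all genes together gave 13.4 times. In KARPAS422 it was 8.03 ± 3.66 kb against 4.07 ± 0.228 kb, 1.97 times as much against 1.68 times for all genes. Treated lists were above DMSO lists in each series. These sums were not tested, since the genes were chosen with earlier results known. The smallest exact permutation p that the lists allow is 0.333.

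Ser5P, the mark of polymerase near gene starts, was found at a gene end in all 6 lists for 6 of the 8 members, against 23.6% of all genes; the exceptions were CREBBP and TET2. KMT2D is counted in DMSO replicate 2 only by the far end it shares with the PRKAG1 start, and 5 members had a start peak in all 6 lists. At 2 h of CDK-TCIP1, start cover was above both DMSO lists in both treated lists for KMT2D, EP300, EZH2, KMT5B, TET2 and KDM6A, 6 of 8 members against 18.4% of all genes. None was below (1.2%). The shared DMSO lists are those of 4 h, so the 2 h lists differ from them in time as well as in treatment. At 4 h the treated lists were above DMSO at KMT2D and KMT5B only (9.12% of all genes).

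TET2 was the member that gained Ser5P at 2 h (2.74% of all genes gained, 0.26% lost). It had 0 bp under peaks in both DMSO lists and in both 4 h lists, and 307 and 317 bp of its start window at 2 h. The 2 h peaks had folds of 7.96 and 4.73 and summits 1105 and 1085 bp from the outermost start, at the inner start where the CDK9 peaks lay. Both overlaps with the window were under 500 bp, and with that minimum the gain was not called. Over the span TET2 gained Ser5P at 2 h as well (2.66% of all genes). At 4 h no member gained or lost Ser5P (1.4% and 0.419% of all genes).

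KMT2D start cover by Ser5P was 442 and 0 bp in DMSO, 729 and 1217 bp at 2 h, and 495 and 484 bp at 4 h. KMT5B had 662 and 573 bp in DMSO, 1446 and 694 bp at 2 h, and 1489 and 1031 bp at 4 h. At both starts every treated list lay above every DMSO list at both times. Over the KMT2D span the 4 h lists lay below DMSO, with 0.588 and 0.621 kb against 1.695 and 0.692 kb (6.14% of all genes). That span cover includes peaks at the far end shared with the PRKAG1 start. EP300 had 1339 and 1518 bp in DMSO and 1771 and 1838 bp at 2 h, and its 4 h lists, at 1517 and 1550 bp, overlapped DMSO. EZH2 reached the whole 2001 bp window in both 2 h lists, from 1744 and 1628 bp in DMSO, and gave 1464 and 2001 bp at 4 h. KDM6A had 1687 and 1906 bp in DMSO and 1990 and 1941 bp at 2 h, close to the whole window in all of these but 1. The exact permutation p was 0.333 for each of these 2 h differences, the smallest that 2 lists against 2 allow.

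The summed Ser5P cover of the 8 spans was 6.99 ± 3.18 kb in DMSO, 9.98 ± 1.42 kb at 2 h and 6.20 ± 1.10 kb at 4 h (SD, n = 2). The ratios to DMSO were 1.43 and 0.887, and over all genes 1.04 and 0.851. The single DMSO lists gave 4.74 and 9.24 kb, and those of 2 h gave 8.97 and 10.98 kb, so the groups overlapped.

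Ser2P, the mark of elongation, was at a gene end in all 6 lists for 5 members, KMT2D, EP300, EZH2, ARID1A and KDM6A (14.4% of all genes). In treated replicate 1 at 2 h KMT2D is counted only by that shared far end. No member gained or lost Ser2P at a gene end at 2 h (0.165% and 1.72% of all genes) or 4 h (1.58% and 1.03%). Without DMSO replicate 1, KMT5B was gained at both times, and without DMSO replicate 2, TET2 was lost at 2 h. Differences lay inside the genes. KMT2D held 7 and 3 Ser2P peaks inside its span, away from both ends, in the DMSO lists, against 0 and 0 at 2 h and 0 and 1 at 4 h. EP300 held 3 and 3 in DMSO, 0 and 2 at 2 h, and 1 and 2 at 4 h. At both genes every treated list held fewer than every DMSO list. The share of all genes with fewer was 5.67% at 2 h and 5% at 4 h, each time counted alone and without matching for gene length. The KMT2D peaks of DMSO lay between 6.1 and 31.6 kb into the gene and were weak, with folds of 3.81 to 5.73.

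By covered length, Ser2P peaks lay over 4.31 and 1.82 kb of KMT2D in DMSO, 0 and 1.09 kb at 2 h, and 0.282 and 0.947 kb at 4 h. EP300 had 2.84 and 2.78 kb in DMSO, 0 and 2.47 kb at 2 h, and 0.680 and 1.14 kb at 4 h. ARID1A had 3.20 and 2.5 kb in DMSO, 1.86 and 2.06 kb at 2 h, and 2.25 and 1.71 kb at 4 h. In these 3 members all treated lists lay below both DMSO lists at both times. The share of all genes below DMSO was 11.7% at 2 h and 9.09% at 4 h. Those shares count each time alone and are not matched for gene length. KDM6A went the other way at 4 h, with 1.22 and 0.910 kb against 0.823 and 0.542 kb (7.38% of all genes). The Ser2P DMSO lists were long (28951 and 16593 peaks), and the treated lists had 6519 and 16170 peaks at 2 h and 16323 and 13657 at 4 h. Over the 8 spans the sum was 10.7 ± 4.38 kb in DMSO, 5.55 ± 4.00 kb at 2 h and 5.90 ± 1.02 kb at 4 h, or 0.517 and 0.549 of DMSO, where all genes gave 0.499 and 0.719. With lists cut to equal numbers of top peaks, the difference in summed Ser2P cover (treated minus DMSO) was -0.428 kb at 2 h and -1.27 kb at 4 h, in place of -5.19 and -4.84 kb. The single genes were not recomputed that way.

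**Figure D5:**
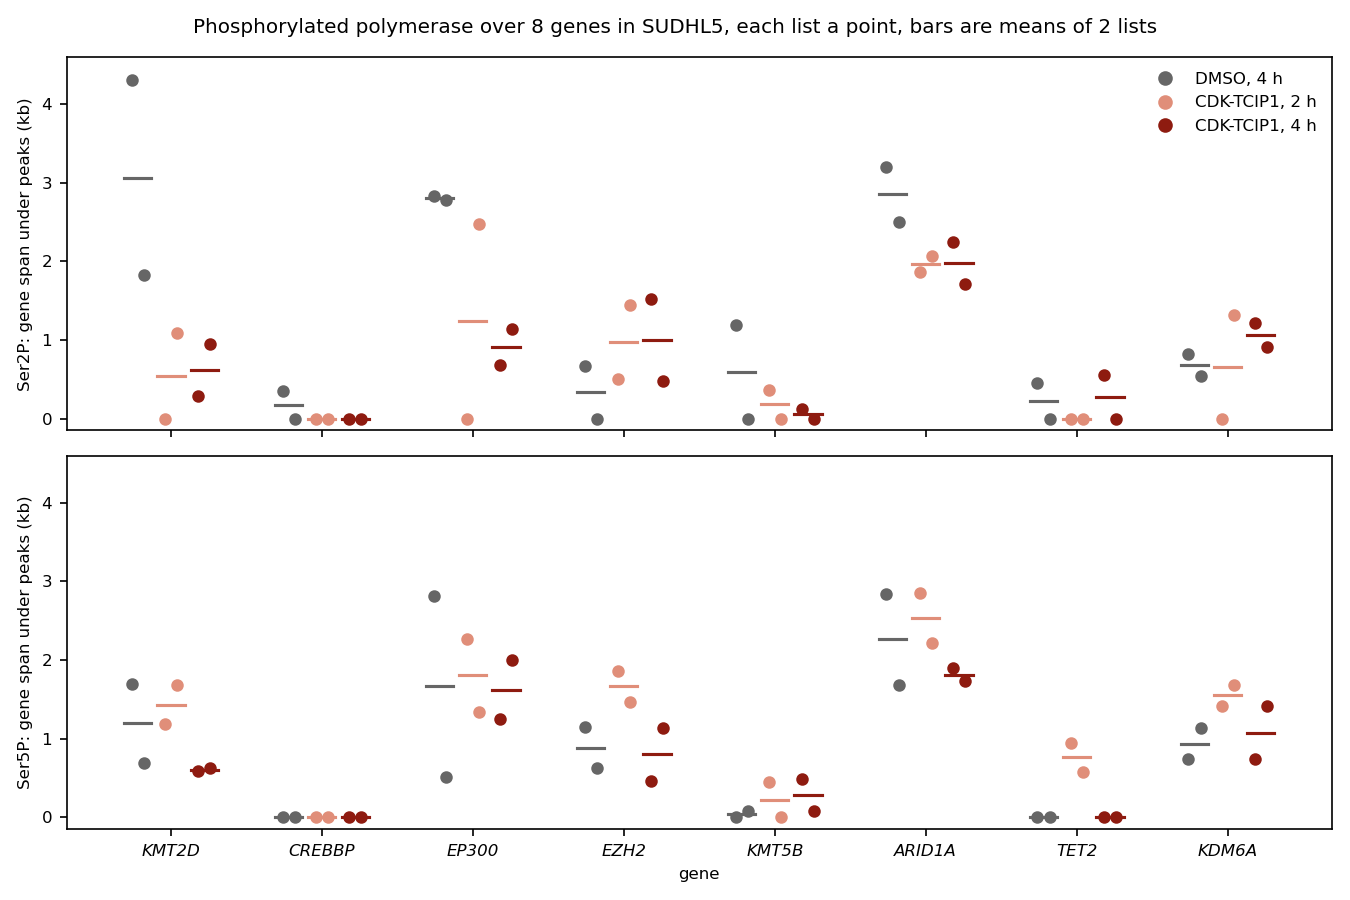
Points give the kb of each gene span under Ser2P peaks (upper) and Ser5P peaks (lower) in each SUDHL5 list, grey for DMSO at 4 h, light red for CDK-TCIP1 at 2 h and dark red at 4 h; bars are means of 2 lists. For Ser2P the grey points of KMT2D, EP300 and ARID1A lie above all their red points, and for Ser5P the TET2 points leave 0 only at 2 h.

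At the starts, Ser2P cover at 2 h overlapped DMSO for all 8 members (1.21% of all genes above DMSO, 5.66% below). At 4 h it was above DMSO at KMT5B and KDM6A (11.6% of all genes). KMT5B had 603 and 0 bp in DMSO and 1125 and 817 bp at 4 h. KDM6A had 1627 and 613 bp in DMSO and 1962 and 1852 bp at 4 h. KDM6A was thus the member with longer treated cover both over the start window and over the span at 4 h.

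Pol II lists were short, and no member gained or lost Pol II at a gene end at 2 h (0.17% and 0.00499% of all genes) or at 4 h (0% and 0.03%). KDM6A had the most regular Pol II peak, in 7 of 9 lists. It covered 0, 525 and 482 bp of the start window in DMSO and 935, 679 and 1237 bp at 2 h. The means were 336 ± 291 and 950 ± 279 bp (SD, n = 3), with no overlap and an exact permutation p of 0.1, the smallest that 3 lists against 3 allow. The permutation did not keep lists of the same replicate number together. KDM6A was the only member with such a separation, found at 0.404% of all genes. At 4 h the KDM6A values were 0, 400 and 734 bp and overlapped DMSO. The lowest DMSO value and the lowest 4 h value both come from the short replicate 1 lists. Without replicate 1 the 2 h values still lay above those of DMSO. KDM6A Pol II summits lay 385 to 606 bp upstream of the start. TET2 and CREBBP had no Pol II peak in any list, and KMT2D had none at its start.

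KDM6A start cover was longer in both treated lists of each CDK9 series. With equal numbers of top peaks its CDK9 gain was not called in SUDHL5. For polymerase the KDM6A start cover lay above DMSO at 1 time of each kind. These were Ser5P at 2 h (18.4% of genes with known strand), by 169 bp in a nearly full window, Ser2P at 4 h (11.6%) and Pol II at 2 h (0.404%). At the other time KDM6A start cover overlapped DMSO, with 1477 and 1912 bp for Ser5P at 4 h and 619 and 1833 bp for Ser2P at 2 h. The SUDHL5 polymerase comparisons share their DMSO lists between times, so the 2 times are not separate evidence.

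The gain calls were also made for 73 other chromatin regulator genes. With ab239364, 8 of 73 gained CDK9 (10.96%), with CST2316S in SUDHL5 9 of 73 (12.3%), and in KARPAS422 3 of 73 (4.11%), beside the shares of all genes given above. SMARCB1, a core BAF subunit that sits in the same remodeller as ARID1A, gained it in all 3 series, as did 0.469% of all genes. EED, the PRC2 subunit that binds methylated H3 lysine 27 beside EZH2, gained it with both antibodies in SUDHL5, as did ARID2 and the acetyltransferase gene KAT2B. No share of all genes is given for a gain with both antibodies, so these 3 genes cannot be compared with all genes. Of the 8 genes of DNA methylation and the 8 histone demethylase genes listed, none gained CDK9 in any series. Among all genes, 14.2% gained it in at least 1 series. None of the 73 lost CDK9 (0.00998%, 0% and 0.629% of all genes lost it). SMARCE1 gained Ser2P at both times (0.165% of all genes at 2 h, 1.58% at 4 h). PHF19 lost Ser2P at both times (1.72% and 1.03%). NCOA6 gained and SUV39H1 lost Ser5P at 2 h (2.74% and 0.26% of all genes). MBD4 gained Pol II at 2 h (0.17% of all genes).

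The gene whose span cover over the 33 lists was most like that of each member was also found, as a description over lists that differ in target and length. Spearman's rho was 0.93 for ARID1A with CCDC106 and for KDM6A with MEIG1, and 0.91 for KMT2D with RANGAP1 and for EP300 with PCF11. It was 0.83 for EZH2 with PPP1CB and 0.78 for KMT5B with MRPL13. TET2 matched LOC124900868 fully because the same peaks lie in both overlapping genes, and CREBBP, with cover in 2 lists, allows no reading. Among the members themselves, KMT2D and EP300 (0.82), KMT2D and ARID1A (0.81) and EP300 and ARID1A (0.81) were most alike, and EP300 and KMT5B (0.16) least.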

How the data were processed

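The 8 genes and all lists of genes were chosen with earlier results of these data known. ChIP-seq of 43 samples (33 with a peak list, 10 inputs) was aligned to hg38 and called with Bowtie2 and MACS2 among other tools, per the submitters' processing notes; the sources used here name neither versions nor the control of each call. The deposited lists give the authors' fold enrichment, a ratio, beside the authors' -log10 p and their -log10 q, of which the lowest was 1.30. These values were used to rank, filter and describe peaks within a list. Differences between lists rest on them only where peaks were filtered by q or taken by rank. Of the peaks, 286511 were used and 25 on contigs left out. The labels say that Drosophila chromatin was added for CDK9; no value scaled to it was used. File names give the CDK9 DMSO samples another time than the labels, which were followed, and titles and protocol differ in the CST antibody number. Depth is unknown, so no counting interval is given.

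Gene spans came from RefSeq (GRCh38.p14), with strand known for 15842 of 20033 genes. Peaks touching a window of 1 kb either side of a gene end, or the span, by at least 1 bp were counted, and covered bases summed, in Python 3.11.15 with pandas 2.3.3. Upstream windows are the 250 bases before the start. Exact permutation tests were two-sided. The calls were checked on simulated lists. Alternatives were -log10 q of at least 5, 500 bp of overlap, equal numbers of top peaks, each replicate left out and a replicate block. Named genes beyond the 8 are those the calls found in the fixed lists or the most similar gene. A result among the other regulators is not reported here.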

Additional observations from a re-analysis of the deposited data

How the results depend on the processing

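The calls rest on list length and on few lists. No share of all genes is given for the settings below, so the counts show only how far the calls on the members move. With -log10 q of at least 5, the members that gained CDK9 at a gene end numbered 2 with ab239364 (EP300, KDM6A) and 1 with CST2316S in SUDHL5 (ARID1A). Over the spans they numbered 2 in each of the 3 series (EP300 and KDM6A, ARID1A and TET2, TET2 and KDM6A), and the CST2316S difference in SUDHL5 cover was 1.47 kb in place of 2.95 kb. With lists cut to equal numbers of top peaks, 0 members gained CDK9 at ends or spans with either antibody in SUDHL5, and the cover differences were 1.07 kb with ab239364 (3.83 kb before) and 0 kb with CST2316S. With 500 bp of overlap 0 members gained Ser5P at 2 h, and with a 2.5 kb window, chosen after seeing the data, 1 member (KDM6A) gained CDK9 in KARPAS422. Leaving out a replicate gave 1 to 3 members gained with ab239364 at ends and at spans, with 3 (EP300, ARID1A, KDM6A) without DMSO replicate 2. In KARPAS422 spans it gave 1 to 2. For Ser2P at 2 h it gave 0 to 1 gained (KMT5B, without DMSO replicate 1) at ends and spans, 0 to 1 lost at ends (TET2) and 0 to 2 lost at spans (CREBBP, TET2), both without DMSO replicate 2. For Ser2P at 4 h it gave 0 to 1 gained (KMT5B) and 0 to 1 lost at spans (CREBBP). Leaving out the short replicate 1 of Pol II changed no count. Whether lists of the same replicate number belong together could not be decided. The correlations of same-numbered deviations were weak, from -0.056 to 0.128. Pol II lists had the same order of length in each group, with replicate 2 longest and replicate 1 shortest. A replicate block changed no count of members and left the ab239364 cover difference at 3.83 kb. Both groups hold the same replicate numbers, so a block cannot move a difference of means. This result therefore does not bear on the pairing.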
